A study of Mus musculus with 8 samples.

Results

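The genes described are 5 transcription factor and chromatin genes of the core pluripotency circuit, Pou5f1, Sox2, Nanog, Sall4 and Utf1. They were taken by symbol from the gene counts of 8 Oxford Nanopore Technologies (ONT) libraries, and all 5 were found among the 24421 genes listed. The libraries were made from polyadenylated RNA of R1 cells, a mouse embryonic stem cell (ESC) line. R1 cells before differentiation (Undiff) were kept in ESC growth medium, with leukaemia inhibitory factor (LIF) according to the methods of the study. Day4 cells had been grown as embryoid bodies, free-floating aggregates, without LIF for 4 days and then treated for 4 days with 2 µM retinoic acid (RA), a vitamin A derivative that drives differentiation (the sample labels write the dose in millimolar units, the design text and the methods in micromolar). The tissue label reads embryoid bodies for all 8 libraries, Undiff included. Each state was sequenced on 2 platforms. ONT Direct RNA reads the native RNA strand from 500 ng of polyadenylated RNA, and ONT cDNA reads PCR-amplified cDNA from 50 ng. There were 2 replicates in each of the 4 groups. By the methods, the 2 replicates of a state came from separate cultures, and this RNA served both kits, so libraries of the 2 platforms share cultures and are not independent of each other. All cells came from 1 line with no genetic change, so the libraries are of a single genotype.

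OCT4, the POU-domain protein encoded by Pou5f1, and SOX2, a high-mobility-group (HMG) box protein, bind DNA side by side at composite elements in the enhancers of ESC genes, their own included. NANOG, a homeodomain protein, holds the same cells in self-renewal and lowers their dependence on LIF. SALL4, a zinc finger protein, sits on many of the same enhancers and recruits the NuRD complex. UTF1, a chromatin-associated protein, is encoded by a classic target of the OCT4 and SOX2 pair. Retinoic acid silences Pou5f1 in embryonal carcinoma cells and ESCs through its enhancers and through nuclear receptor elements of its promoter. SOX2 differs from the others in that neural progenitors keep it, and germ cells keep or regain Pou5f1, Nanog and Sall4.

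The 5 genes lie on 5 chromosomes of the GRCm38 (mm10) assembly in the GENCODE vM21 annotation. Pou5f1 (ENSMUSG00000024406.16) occupies chr17:35506018-35510772 on the plus strand, and its longest transcript has 5 exons and 1362 bases. Sox2 (ENSMUSG00000074637.7) is a gene of 1 exon and 2057 bases at chr3:34650405-34652461 on the plus strand, inside the long non-coding gene Sox2ot. Nanog (ENSMUSG00000012396.12) occupies chr6:122707489-122714633 on the plus strand with 4 exons and 2211 bases. Sall4 (ENSMUSG00000027547.17) is the longest at 5073 bases in 4 exons and occupies chr2:168748332-168767943 on the minus strand. Utf1 (ENSMUSG00000047751.9) occupies chr7:139943789-139945112 on the plus strand with 2 exons and 1227 bases. The unlisted antisense gene Gm19553 shares 317 exon bases with Pou5f1, and Gm14261, also unlisted, shares 526 with Sall4. Direct RNA reads were counted by strand. For the gene counts of cDNA the methods name no strand setting, and their exon counts of cDNA ignored strand, so sense and antisense reads of these 2 genes cannot be told apart there. Sox2ot shares no exon base with Sox2 and held at most 8 reads in any library.

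The sequence upstream of the start site is shown for the 4 genes that matched the RefSeq promoter table (GRCm38.p6), because Pou5f1 is the promoter on which RA-regulated nuclear receptors act and Nanog carries the composite element of OCT4 and SOX2. Sall4 had no entry. Each line holds the 250 bases before the RefSeq start, all on the plus strand, at chr17:35505782-35506031 for Pou5f1, chr3:34649745-34649994 for Sox2, chr6:122707239-122707488 for Nanog and chr7:139943606-139943855 for Utf1. The RefSeq start lies upstream of the GENCODE start for Sox2, downstream of it for Pou5f1 and Utf1, and at the same base for Nanog. Capitals mark matches, on either strand, to the POU motif ATGCAAA, the SOX motifs ACAATG and ACAAAG, the nuclear receptor motif AGGTCA and the composite OCT4-SOX2 element. The GC box GGGCGG was searched as well and is left in lower case. The composite element overlaps the POU motif.
Pou5f1: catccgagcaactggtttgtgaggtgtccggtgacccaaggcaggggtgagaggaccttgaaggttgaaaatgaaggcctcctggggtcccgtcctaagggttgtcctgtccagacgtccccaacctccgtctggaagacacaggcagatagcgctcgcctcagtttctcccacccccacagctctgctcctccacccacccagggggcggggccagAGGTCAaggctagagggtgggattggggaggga
Sox2: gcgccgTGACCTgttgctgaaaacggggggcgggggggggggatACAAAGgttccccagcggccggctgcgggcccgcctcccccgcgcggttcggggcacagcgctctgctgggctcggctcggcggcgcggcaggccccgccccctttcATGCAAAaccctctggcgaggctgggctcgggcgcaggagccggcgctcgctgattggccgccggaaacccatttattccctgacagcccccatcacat
Nanog: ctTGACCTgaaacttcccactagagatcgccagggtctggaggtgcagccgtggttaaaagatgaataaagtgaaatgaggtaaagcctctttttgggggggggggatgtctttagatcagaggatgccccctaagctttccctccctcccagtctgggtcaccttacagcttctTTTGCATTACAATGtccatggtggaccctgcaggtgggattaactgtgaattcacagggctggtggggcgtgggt
Utf1: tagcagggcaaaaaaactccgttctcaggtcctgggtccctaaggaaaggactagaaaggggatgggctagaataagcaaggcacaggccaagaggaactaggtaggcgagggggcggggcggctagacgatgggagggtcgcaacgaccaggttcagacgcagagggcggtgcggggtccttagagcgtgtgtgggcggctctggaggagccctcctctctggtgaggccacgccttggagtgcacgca

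Matches were searched over 300 bases, from 250 before to 50 after the start. The Nanog promoter held the composite element 75 bases before its start, with a SOX motif overlapping its end. Of all 32851 promoters of that length, 8 (0.0244%) held the composite element. The Pou5f1 promoter held the nuclear receptor motif 33 bases before the start, next to a GC box. The nuclear receptor motif was found in 16.3% of all promoters. Sox2 held the POU motif (4.63% of promoters) and a SOX motif (28.6% of promoters held either form) at separate places. Sox2 and Nanog each held the nuclear receptor motif on the minus strand. Utf1 held 4 matches to the GC box, which 35.7% of promoters held, and none to the other motifs in this window.

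The 4 Direct RNA libraries held between 283461 and 907489 reads assigned to genes, and the 4 cDNA libraries between 948657 and 2088592. Levels are given as CPM, reads per 1e6 reads on genes, so 3 reads, the smallest number treated as a level, came to between 1.44 and 10.6 CPM. In Undiff, all 10 pluripotent marker genes had reads in every library and summed to 8810 to 10770 CPM in Direct RNA and 20747 to 23572 CPM in cDNA. At Day4 their sum was 109 to 445 CPM in Direct RNA and 91.0 to 928 CPM in cDNA. Dppa5a alone made up most of each sum, with 4985 and 6850 CPM in Direct RNA Undiff and 18125 and 20187 CPM in cDNA Undiff. Mesoderm markers, summed over 10 genes, went from 14.3 to 15.4 CPM in Direct RNA Undiff to 727 to 853 CPM at Day4, and from 4.31 to 9.49 CPM to 438 to 552 CPM in cDNA. Of the mesoderm markers, Tcf21 alone held 312 and 315 CPM in cDNA Day4, and the early mesoderm genes T and Mesp1 had at most 1 read in any library. The 10 visceral and parietal endoderm markers summed to 108 to 138 CPM in Direct RNA Undiff and 1053 to 1499 CPM at Day4, and to 12.0 to 20.03 CPM and 325 to 364 CPM in cDNA. The sum of 10 fibroblast and smooth muscle markers went from 57.4 to 121 CPM in Undiff to 1375 to 3147 CPM at Day4 in Direct RNA and from 16.9 to 42.6 CPM to 340 to 346 CPM in cDNA. Tagln and Thy1, neither called, had negative log2 fold changes (Tagln -1.19 by Direct RNA and -2.02 by cDNA, Thy1 -1.18 and -2.85). Col3a1, a fibrillar collagen gene with the highest mean of the list in Direct RNA, had 0 reads in all 4 Undiff libraries and 525 and 625 reads in Direct RNA Day4 and 179 and 314 reads in cDNA Day4. The heart and limb factor gene Hand2 likewise had 0 reads in Undiff and between 55 and 95 reads at Day4.

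In undifferentiated cells the 5 genes together took 0.405% and 0.455% of the reads assigned to genes in both Direct RNA libraries and 0.350% and 0.453% in the 2 cDNA libraries. Pou5f1 was the most abundant in Direct RNA (mean 2105 CPM) and Sall4 in cDNA (mean 2017 CPM, ahead of Utf1 with 893 and Pou5f1 with 808). A long read can cover a whole transcript, so read counts need not scale with transcript length. The values per kilobase that follow are therefore no order of abundance. Per length of the longest transcript, Direct RNA gave Pou5f1 1546 ± 82.0 CPM per kilobase (SD, n = 2), then Utf1 825 ± 131, Sox2 276 ± 23.0, Nanog 209 ± 5.82 and Sall4 29.9 ± 3.13. No neighbouring pair in this order overlapped between its replicates. In cDNA the order per length was Utf1 728 ± 247 CPM per kilobase, Pou5f1 593 ± 105, Sall4 398 ± 36.9, Nanog 73.6 ± 37.4 and Sox2 65.5 ± 7.80. Utf1 and Pou5f1 overlapped there, as did Nanog and Sox2. Divided by the median transcript length instead, Sall4, whose median transcript is 773 bases long, led the cDNA order with 2609 ± 242 CPM per kilobase, ahead of Pou5f1 with 1364 ± 242.

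**Figure D1:**
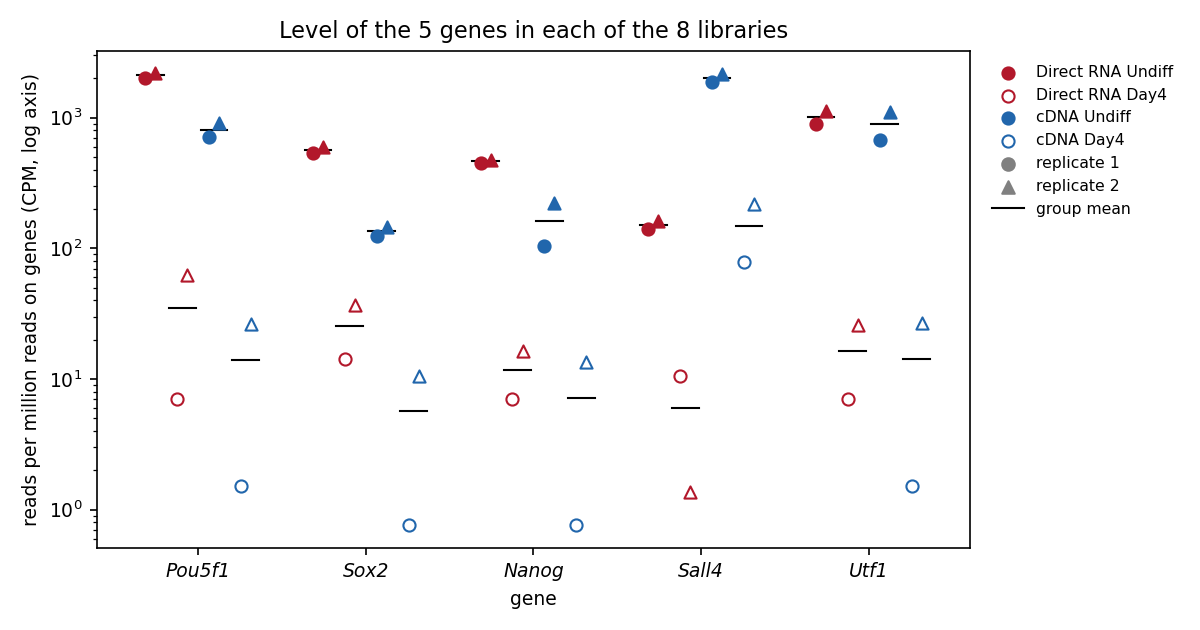
CPM (log axis) of the 5 genes in each of the 8 libraries. Filled symbols are Undiff and open symbols Day4, red is Direct RNA and blue is cDNA, circles are replicate 1 and triangles replicate 2, and bars are group means. Every Undiff library lies above every Day4 library of its platform, and Sall4 is higher in cDNA than in Direct RNA in both states.

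All 5 genes fell from Undiff to Day4 on both platforms. Together they held 4052 and 4546 CPM in Direct RNA Undiff and 45.9 and 142 CPM in Direct RNA Day4. In cDNA they held 3498 and 4533 CPM in Undiff and 83.4 and 294 CPM at Day4. All 5 were called lower by DESeq2 (a gene was called where its Benjamini-Hochberg adjusted p did not exceed 0.05, its log2 fold change was 1 or more in either direction and its normalised count averaged 5 or more). Of all genes with such a mean, 17.2% were called in Direct RNA, 7.67% as lower at Day4 and 9.54% as higher, and 17.9% in cDNA, 9.24% as lower and 8.69% as higher. In bulk RNA, fewer cells expressing a gene and less of its RNA per cell cannot be told apart. Fold changes of the test are shrunken towards 0, and ratios of mean CPM are given beside them where they differ much.

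Pou5f1, the gene of OCT4, had 706 and 1982 reads (2026 and 2184 CPM) in Direct RNA Undiff and 2 and 46 reads (7.06 and 62.4 CPM) at Day4. In cDNA it had 670 and 1898 reads (706 and 909 CPM) in Undiff and 2 and 55 reads (1.52 and 26.5 CPM) at Day4. The states did not overlap on either platform, and the 2 Day4 replicates stood far apart. The log2 fold change was -5.07 (SE 1.03, adjusted p = 3.52e-05) in Direct RNA, 33.6-fold lower, and -5.08 (SE 1.19, adjusted p = 0.000491) in cDNA, 33.8-fold lower. By the ratio of mean CPM the fall was 60.6-fold and 57.7-fold. The call was lost without Direct RNA Undiff replicate 2 (log2 fold change -4.31, adjusted p = 0.0765), without cDNA Undiff replicate 1 (-4.36, adjusted p = 0.0606) and without cDNA Undiff replicate 2 (-4.23, adjusted p = 0.0923). Without Direct RNA Undiff replicate 1 the log2 fold change was -4.44. Without Day4 replicate 2 it was -7.60 in Direct RNA and -8.37 in cDNA.

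Sox2, the gene of the HMG-box partner of OCT4, had 186 and 545 reads (534 and 601 CPM) in Direct RNA Undiff and 4 and 27 reads (14.1 and 36.6 CPM) at Day4. In cDNA it had 117 and 305 reads (123 and 146 CPM) in Undiff and 1 and 22 reads (0.759 and 10.6 CPM) at Day4. Again no Day4 library reached an Undiff library. The log2 fold change was -4.33 (SE 0.43, adjusted p = 9.30e-21) in Direct RNA, 20.1-fold lower, and -4.65 (SE 0.61, adjusted p = 4.55e-12) in cDNA, 25.1-fold lower. With 1 Undiff replicate left out, the cDNA call was lost (log2 fold change -3.60 without replicate 1 and -3.52 without replicate 2, adjusted p = 0.153 and 0.204). With 1 Day4 replicate left out, cDNA gave -3.81 without replicate 1 and -6.49 without replicate 2, and Direct RNA gave -5.10 without replicate 2. Neural progenitors, which keep Sox2, were covered by 10 marker genes whose sum was 52.9 to 102 CPM in Direct RNA Day4, against 23.0 to 30.9 CPM in Undiff, and 32.6 to 39.0 CPM in cDNA Day4, against 3.16 to 7.18 CPM. Of these markers Olig2 had no read in any library, and the SoxB1 gene Sox1 had no read in cDNA and at most 3 reads in Direct RNA Day4. Of the 10 neural markers, 2 reached a mean of 5 in Direct RNA and none of them was called, and 3 did in cDNA, where Fabp7 was called higher. Their part in the Sox2 reads left at Day4 was not tested.

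Nanog, the homeodomain gene, had 158 and 428 reads (453 and 472 CPM) in Direct RNA Undiff and 2 and 12 reads (7.06 and 16.3 CPM) at Day4. In cDNA it had 99 and 462 reads (104 and 221 CPM) in Undiff and 1 and 28 reads (0.759 and 13.5 CPM) at Day4. Nanog was the gene whose cDNA Undiff replicates differed most, with replicate 2 at 2.12 times replicate 1 (95% exact interval 1.70 to 2.66, counting error only). The log2 fold change was -5.06 (SE 0.51, adjusted p = 7.56e-21) in Direct RNA, 33.5-fold lower. In cDNA it was -3.97 (SE 1.20, adjusted p = 0.0118), 15.7-fold lower, and it lay between -4.71 and -4.89 with edgeR, without shrinkage and with the replicate block. The cDNA call was lost without Undiff replicate 1 (-3.64, adjusted p = 0.161) and without Undiff replicate 2 (-3.0, adjusted p = 0.378). Without cDNA Day4 replicate 2 the value was -6.69.

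Sall4, the zinc finger gene, had 49 and 148 reads (141 and 163 CPM) in Direct RNA Undiff and 3 and 1 reads (10.6 and 1.36 CPM) at Day4. In cDNA it had 1788 and 4489 reads (1885 and 2149 CPM) in Undiff and 104 and 450 reads (78.9 and 217 CPM) at Day4. Direct RNA thus held few Sall4 reads at Day4, and cDNA held more than for any of the other 4 genes. The log2 fold change was -4.81 (SE 0.76, adjusted p = 1.99e-08) in Direct RNA, 28.1-fold lower, and -4.05 (SE 0.44, adjusted p = 5.55e-18) in cDNA, 16.6-fold lower. Both calls held in all 11 alternative settings of each platform. In Direct RNA the value was -5.49 without Day4 replicate 1 and -3.54 without Day4 replicate 2, and in cDNA it was -4.74 without Day4 replicate 2.

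Utf1, the target of the OCT4 and SOX2 pair, had 313 and 1022 reads (898 and 1126 CPM) in Direct RNA Undiff and 2 and 19 reads (7.06 and 25.8 CPM) at Day4. In cDNA it had 644 and 2313 reads (679 and 1107 CPM) in Undiff and 2 and 56 reads (1.52 and 27.0 CPM) at Day4. The log2 fold change was -5.67 (SE 0.44, adjusted p = 3.34e-34) in Direct RNA, 51.0-fold lower and the 15th lowest of 9646 genes. In cDNA it was -5.13 (SE 1.20, adjusted p = 0.000491), 35.0-fold lower and the 61st lowest of 10271 genes. By the ratio of mean CPM the fall was 61.7-fold and 62.7-fold. Without cDNA Undiff replicate 2 the cDNA call was lost (-4.16, adjusted p = 0.102), and without cDNA Undiff replicate 1 the value was -4.52. Without Day4 replicate 2 it was -6.60 in Direct RNA and -8.49 in cDNA, and without Direct RNA Undiff replicate 2 it was -4.98.

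**Figure D2:**
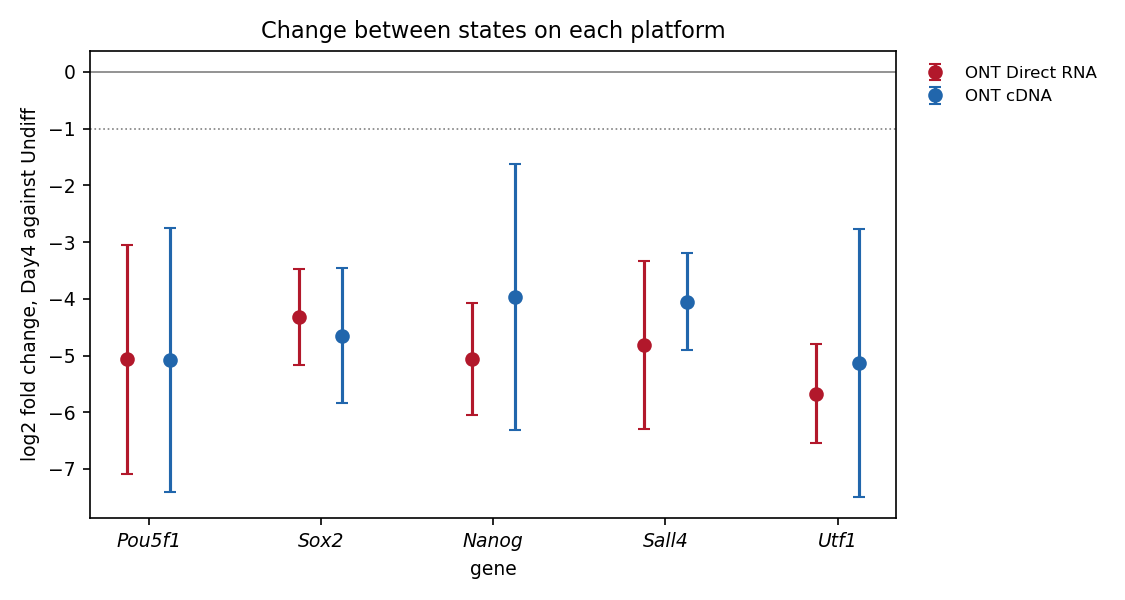
Log2 fold change of Day4 against Undiff for the 5 genes, from DESeq2 with shrinkage, in ONT Direct RNA (red) and ONT cDNA (blue). Points are estimates, bars 95% intervals, the grey line is no change and the dotted line the threshold of -1. Every interval lies below the threshold.

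The fall was incomplete, and the replicates differed in what was left. As a share of the Undiff mean of its platform, Pou5f1 stood at 0.335% (95% Wilson interval 0.0919 to 1.22) in Direct RNA Day4 replicate 1 and at 2.96% (2.22 to 3.95) in replicate 2. In cDNA it stood at 0.188% (0.0515 to 0.685) in replicate 1 and at 3.28% (2.52 to 4.27) in replicate 2. The replicate 1 values rest on 2 reads each, under the 3 reads treated as a level. Utf1, also with 2 reads in each replicate 1, stood at 2.54% in Direct RNA replicate 2 and at 3.02% in cDNA replicate 2. In replicate 2, Sox2 was at 6.45% (4.44 to 9.39) in Direct RNA and 7.86% (5.19 to 11.9) in cDNA, and Nanog at 3.52% (2.01 to 6.15) and 8.28% (5.73 to 12.0). Sall4 kept 3.91% (3.23 to 4.74) and 10.7% (9.79 to 11.8) in cDNA replicates 1 and 2, where its depth was greatest. In Direct RNA its 3 and 1 reads came to 6.97% (2.37 to 20.5) and 0.893% (0.158 to 5.06). These intervals cover counting error of the Day4 library only.

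**Figure D3:**
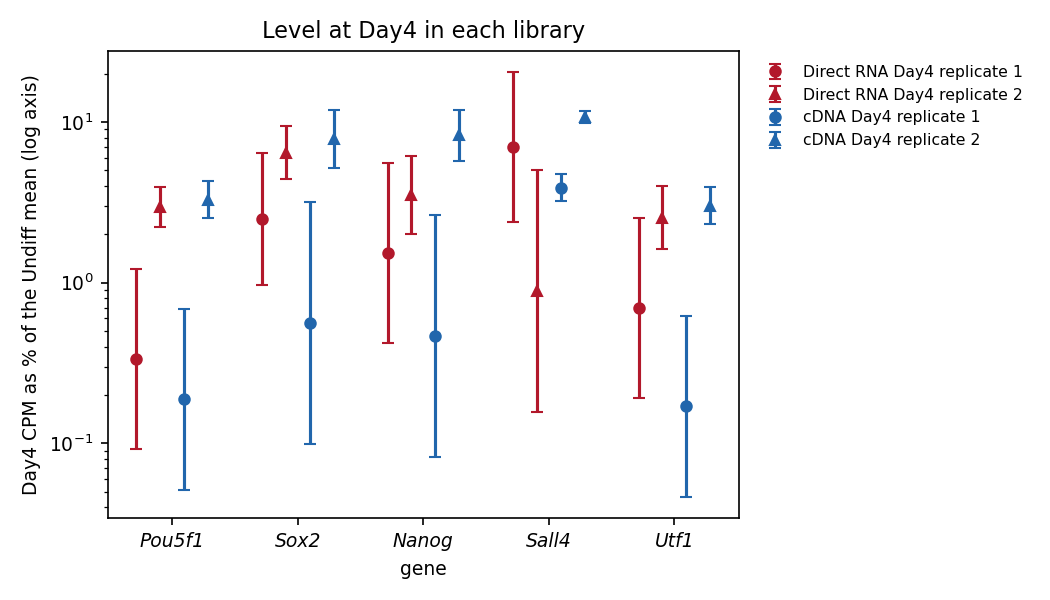
Level of each gene in the 4 Day4 libraries as a percentage of the mean Undiff CPM of the same platform, on a log axis. Bars are 95% Wilson intervals of the Day4 count. Replicate 2 (triangles) lies above replicate 1 (circles) for every gene and platform except Sall4 in Direct RNA.

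The cDNA Day4 replicates stood further apart for these genes than for most. Replicate 2 was 17.5 times replicate 1 for Pou5f1 (95% exact interval 4.61 to 148), 14.0 times for Sox2 (2.26 to 576), 17.8 times for Nanog (2.94 to 727), 17.8 times for Utf1 (4.69 to 150) and 2.75 times for Sall4 (2.21 to 3.43). In all 5 genes the interval lay above 1, as it did for 22.8% of all genes averaging 5 reads or more, whose median ratio was 1.19. Ratios over 3, which Sall4 did not reach, were found in 5.32% of those genes. In Direct RNA Day4 the ratio was 8.84 for Pou5f1 (2.31 to 75.2), and for the other 4 genes the interval held 1. There 8.02% of genes had an interval above 1, and 4.34% were more than 3-fold higher in replicate 2. All 10 pluripotent markers were higher in cDNA Day4 replicate 2 than in replicate 1 too, with 7 intervals above 1. In Direct RNA Day4, 7 of them were higher in replicate 2 and 1 was lower, and 2 had no read, with 1 interval above 1 and 1 below. The one below was Tfcp2l1, a naive state factor gene, with 4 and 1 reads (ratio 0.0961, interval 0.00195 to 0.971). Dppa5a, an RNA-binding protein gene of pluripotent cells and the most abundant of these markers, went from 75.1 to 826 CPM between the cDNA Day4 replicates and from 60.0 to 371 CPM between the Direct RNA Day4 replicates. Zfp42, the gene of REX1, went from 3.03 to 31.3 CPM in cDNA. Germ cell markers, 10 genes, summed to 41.0 and 80.4 CPM in cDNA Day4 replicates 1 and 2 and to 56.4 and 71.9 CPM in Direct RNA. In Undiff they summed to 402 to 520 CPM in cDNA and 435 to 456 CPM in Direct RNA, and of those with a mean count of at least 5, 2 of 10 were called lower at Day4 in cDNA (9.24% of all genes) and 4 of 7 in Direct RNA (7.67% of all genes), none higher. Their part in the reads left at Day4 was not tested. The labels do not say whether a replicate number marks the same culture on both platforms.

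Whether the fall differed between platforms was tested by the interaction of platform and state over all 8 libraries, without shrinkage. None of the 5 genes was called (adjusted p = 1.00 for each, unadjusted p between 0.214 and 0.865), and edgeR called none of them either. Over all genes 2 of 17267 were called (0.0116%), and 161 (0.932%) had an unadjusted p of at most 0.05. All 5 intervals held 0. Sall4 had the largest estimate, 1.14 (SE 0.92, 95% interval -0.66 to 2.93), on the side of a smaller fall in cDNA. Pou5f1 was at -0.32 (SE 1.90, -4.04 to 3.39) and Sox2 at -0.39 (SE 0.79, -1.93 to 1.15). Nanog was at 0.46 (SE 0.89, -1.28 to 2.20) and Utf1 at -0.42 (SE 1.68, -3.71 to 2.88). For Pou5f1 and Utf1 these intervals leave room for falls that differ more than 4-fold in either direction.

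The level at which the platforms counted a gene differed for 2 of the 5. Sall4 was 26.3-fold higher in cDNA libraries than in Direct RNA libraries (log2 fold change 4.72, SE 0.36, adjusted p = 9.48e-36, DESeq2 over both states), the 30th highest of 10426 genes. Sox2 was 2.50-fold lower in cDNA (log2 fold change -1.32, SE 0.36, adjusted p = 0.000884). Among all genes 51.3% were called between platforms, 26.6% lower and 24.7% higher in cDNA, so a call alone sets no gene apart. Pou5f1 (-0.58, SE 0.76, 95% interval -2.08 to 0.91, adjusted p = 0.689), Nanog (-0.50, SE 0.43, -1.34 to 0.34, adjusted p = 0.439) and Utf1 (0.44, SE 0.69, -0.91 to 1.79, adjusted p = 0.772) were not called. On the CPM scale, where the median gene was at a log2 ratio of -0.72 in Undiff and -0.55 at Day4, the Undiff log2 ratios of cDNA to Direct RNA were 3.73 for Sall4, -1.38 for Pou5f1, -1.51 for Nanog, -2.07 for Sox2 and -0.18 for Utf1, so the sign of Utf1 depended on the scaling.

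The Sall4 difference was present within each state. In Undiff alone it was 22.3-fold (log2 fold change 4.48, adjusted p = 6.12e-37) and in Day4 alone 35.5-fold (5.15, adjusted p = 2.21e-10). Sox2 was called in Undiff alone (-1.21, adjusted p = 0.00649) and not in Day4 alone (-1.31, adjusted p = 0.385), where its reads numbered between 1 and 27. Within a library, where depth cancels, Pou5f1 had 14.4 and 13.4 reads per Sall4 read in Direct RNA Undiff and 0.375 and 0.423 in cDNA Undiff. Pou5f1 had 3.80 and 3.64 reads per Sox2 read in Direct RNA Undiff and 5.73 and 6.22 in cDNA Undiff. Pou5f1 had 2.26 and 1.94 reads per Utf1 read in Direct RNA Undiff and 1.04 and 0.821 in cDNA Undiff. Each of these 3 ratios separated the platforms in Undiff without overlap. Pou5f1 reads per Nanog read did not, at 4.47 and 4.63 in Direct RNA Undiff and 6.77 and 4.11 in cDNA Undiff. At Day4, where replicate 1 held 2 reads of Pou5f1 and of Utf1 on each platform, their ratio did not separate the platforms either (1 and 2.42 in Direct RNA, 1 and 0.982 in cDNA).

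Transcript length moved with the platform difference over all genes, and Sall4 lay against that trend. Genes with a longest transcript of 0.8 to 1.25 times the 5073 bases of Sall4 had a median log2 difference of -0.64 in cDNA against Direct RNA. Of these 2524 genes, 13 (0.515%) were at or above Sall4. Genes as short as Pou5f1 and Utf1 had a median of 1.08 and 1.16, and both genes lay below it. Genes as long as Sox2 and Nanog had a median of 0.40 and 0.30, and those 2 lay below it too. The antisense gene that overlaps Sall4 is not listed in the files, and its part in the cDNA reads was not tested.

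**Figure D4:**
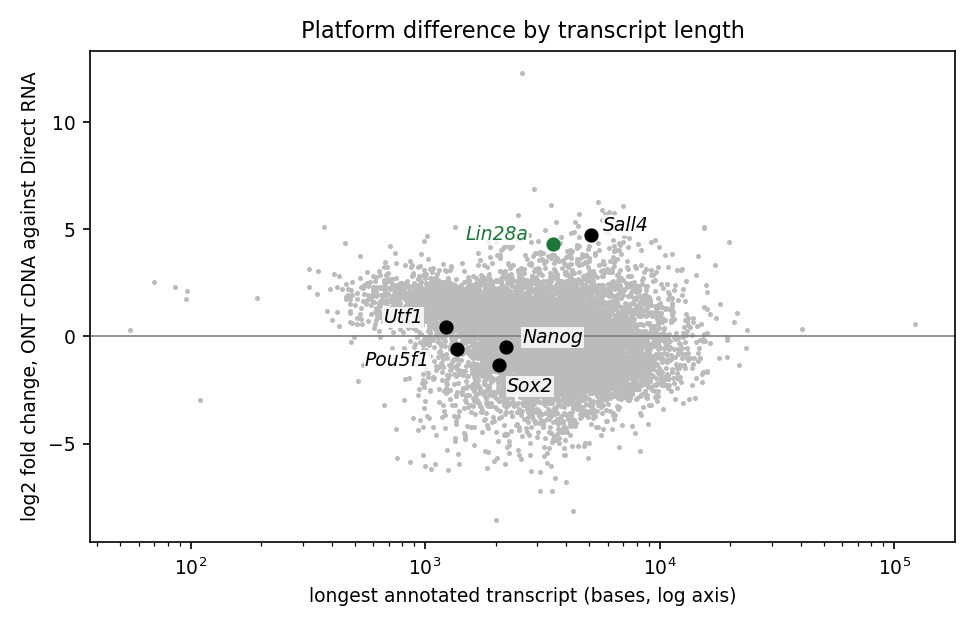
Log2 fold change of ONT cDNA against ONT Direct RNA (DESeq2, both states, shrunken) plotted against the longest annotated transcript in bases on a log axis. Grey points are genes with a mean normalised count of at least 5, black points the 5 genes and the green point Lin28a. Lin28a was picked for its likeness to Sall4 over the 8 libraries. Sall4 at 4.72 and Lin28a at 4.31 lie at the upper edge, and the other 4 genes lie between -1.32 and 0.44.

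Across the 8 libraries Pou5f1, Sox2, Nanog and Utf1 ran together and Sall4 apart. As a description, Pearson's r of log2(CPM + 1) was 0.989 between Pou5f1 and Nanog, 0.987 between Pou5f1 and Utf1 and 0.972 between Pou5f1 and Sox2. It was 0.981 between Sox2 and Nanog, 0.979 between Nanog and Utf1, 0.940 between Sox2 and Utf1, and between 0.342 and 0.624 for Sall4 with each of the others. The 8 points fall into 2 states and 2 platforms, and libraries of a platform share its preparation. Among genes averaging 20 reads per library or more, those most like each gene were named. Pou5f1 was nearest to Fbxo15 (0.993), an F-box gene of ESCs, and to the ESC non-coding RNA Lincenc1 (0.990). Nanog was nearest to Fbxo15 (0.992) and to Esrrb (0.991), an orphan nuclear receptor gene. Utf1 was nearest to Tdh (0.997), the threonine dehydrogenase of mouse ESCs, and to Sfn (0.995). Sox2 was nearest to Alg13 (0.989) and to the tRNA synthetase gene Tars (0.988), which were called 7.84-fold and 2.63-fold lower at Day4 in Direct RNA, less than Sox2 itself.

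Sall4 was nearest to Lin28a (0.993) and Igf2bp1 (0.982), both RNA-binding protein genes. Lin28a, which blocks let-7 maturation, had 43 and 222 reads in Direct RNA Undiff, 2 and 0 at Day4, 1463 and 4076 in cDNA Undiff and 78 and 262 at Day4. Its reads were thus few in Direct RNA and many in cDNA in both states, as for Sall4. Lin28a and Igf2bp1 were picked for their likeness to Sall4 over both platforms, so a shared platform difference follows from the choice. The platform difference of Lin28a was 4.31 on the log2 scale (SE 0.42, adjusted p = 5.19e-23). Igf2bp1 was 2.46 higher on that scale (SE 0.26, adjusted p = 2.93e-19). Lin28a itself fell at Day4, and its log2 fold change was -4.39 by Direct RNA (SE 1.24, adjusted p = 0.00623) and -4.50 by cDNA (SE 0.41, adjusted p = 1.25e-25).

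Partners of the 5 genes in the naive pluripotent state fell with them for the most part. Of 13 genes listed as such, all with a mean count of at least 5, Direct RNA called 10 lower and 1 higher, and cDNA called 8 lower and none higher. Over all genes with such a mean, 7.67% were called lower and 9.54% higher in Direct RNA, and 9.24% and 8.69% in cDNA. The median log2 fold change of the 13 was -3.94 and -2.97, against 0.03 and 0.00 over all genes with such a mean. Nr0b1, the gene of DAX1, an orphan nuclear receptor that binds OCT4, fell, with log2 fold changes of -6.06 (SE 0.99) and -6.31 (SE 1.06) (adjusted p = 6.36e-08 and 1.65e-07). Zfp42 fell too, at -6.24 (SE 0.43) and -5.33 (SE 1.08), with adjusted p = 7.36e-45 and 2.96e-05. The gene called higher was the one listed as Tcf3 (1.23, SE 0.36, adjusted p = 0.00869 in Direct RNA), whose cDNA value was 0.58 (SE 0.71, adjusted p = 0.810). It was taken by symbol, and whether this symbol names a partner of the naive state was not checked. Stat3, the signal transducer of LIF, was not called on either platform, at -0.64 (SE 0.63) and -0.14 (SE 0.64), nor was Tbx3, at -1.04 (SE 0.65) and -0.33 (SE 0.69).

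Targets and markers of the OCT4 and SOX2 circuit, 17 genes that all had a mean count of at least 5, gave 16 calls lower and none higher on each platform. Of all genes with such a mean, 7.67% were called lower in Direct RNA and 9.24% in cDNA. The median log2 fold change of the 17 was -4.57 in Direct RNA and -4.79 in cDNA. Tdgf1, the Nodal co-receptor Cripto, fell, with log2 fold changes of -7.10 (SE 0.62, adjusted p = 3.86e-27) and -7.83 (SE 0.54, adjusted p = 4.19e-44), the most of the list on both platforms. Fgf4, the growth factor gene whose enhancer carries the classic composite element of OCT4 and SOX2, had 56 and 146 reads in Direct RNA Undiff and 0 and 0 at Day4, and 97 and 152 reads in cDNA Undiff and 0 and 2 at Day4. The gene not called was Mycn in Direct RNA (-0.89, SE 0.38, adjusted p = 0.123) and Fbxo15 in cDNA (-3.51, SE 1.41, adjusted p = 0.0943). Trim28, a general chromatin co-repressor gene, had the smallest called change in Direct RNA, -1.30 (SE 0.24, adjusted p = 4.26e-06).

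Relatives of the 5 genes were taken from the POU, SOX and SALL families. Of 22 such genes, 13 had a mean count of at least 5 in Direct RNA, where 5 rose (9.54% of all genes) and 2 fell (7.67%). In cDNA 11 had such a mean, and again 5 rose (8.69% of all genes) and 2 fell (9.24%). The 2 that fell are near the share of all genes, and a relative absent in Undiff could reach that mean only by rising. In the SALL family, Sall1 fell with Sall4, from 34 and 108 reads to 5 and 5 in Direct RNA and from 108 and 155 to 4 and 10 in cDNA. Its log2 fold change was -3.24 (SE 0.68, adjusted p = 6.70e-05) and -4.70 (SE 0.62, adjusted p = 4.85e-12). Sall2 went the other way, from 4 and 5 reads to 22 and 57 in Direct RNA and from 5 and 8 to 104 and 113 in cDNA. It rose by 2.97 (SE 0.75, adjusted p = 0.00152) and 3.44 (SE 0.67, adjusted p = 1.27e-05) on the log2 scale. Sall3 had at most 3 reads in any library.

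In the SOX family, Sox15, a SoxG gene of ESCs that can stand beside OCT4, fell with Sox2. Its log2 fold change was -3.55 (SE 0.84, adjusted p = 0.000566) and -4.34 (SE 0.90, adjusted p = 4.82e-05). Members of the SoxC group rose. Sox11 had 2 and 15 reads in Direct RNA Undiff and 85 and 95 at Day4, and 9 and 12 in cDNA Undiff and 147 and 329 at Day4 (log2 fold change 3.77, SE 0.61, and 3.74, SE 0.56). Sox4 rose by 3.92 (SE 0.71, adjusted p = 1.60e-06) and 2.58 (SE 0.73, adjusted p = 0.00575). Sox12 rose in Direct RNA by 1.95 (SE 0.42, adjusted p = 9.29e-05), with 1.44 (SE 0.59, adjusted p = 0.100) in cDNA. Sox9, a regulator of chondrocytes, neural crest and gut progenitors, had 0 and 0 reads in Direct RNA Undiff and 11 and 10 at Day4, and 3 and 3 in cDNA Undiff and 388 and 662 at Day4. The SoxB1 relatives of Sox2 stayed rare, with Sox1 at no more than 5 reads and Sox3 at no more than 15 reads in any library. Among POU genes, Pou3f2 (BRN2) was called higher in cDNA (3.61, SE 1.27, adjusted p = 0.0437) from 0 and 1 to 12 and 25 reads, and had 1 and 1 reads in Direct RNA Day4. Pou2f1 (OCT1) was at -0.17 (SE 0.91) and -0.01 (SE 0.77) and was not called.

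**Figure D5:**
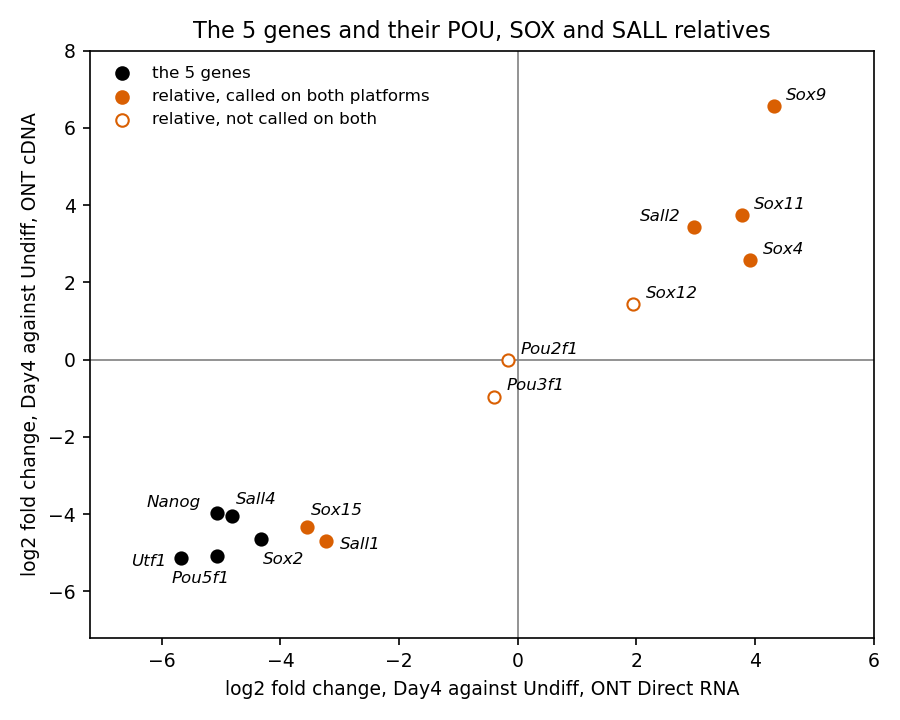
Log2 fold change of Day4 against Undiff in ONT Direct RNA (x axis) and ONT cDNA (y axis) for the 5 genes (black) and for their POU, SOX and SALL relatives with a mean count of at least 5 on both platforms (orange, filled where called on both). Sox15 and Sall1 lie with the 5 genes at the lower left, and Sall2, Sox4, Sox9, Sox11 and Sox12 at the upper right.

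Nuclear receptor genes, 12 of them, which include receptors of RA and receptors known to repress the Pou5f1 promoter, rose in part. Of the 11 with a mean count of at least 5 on each platform, Direct RNA gave 4 calls higher and cDNA gave 3, where 9.54% and 8.69% of all genes were called higher. None of the 11 was called lower, a count that says little beside the 7.67% and 9.24% of all genes. Nr2f1, Nr2f2 and Rarb, called higher on both platforms, passed the mean filter through their Day4 reads and could only be called higher. The calls of these genes therefore carry no direction of their own. The remaining call in Direct RNA was Rxra, with 3 and 16 reads in Undiff and 20 and 58 at Day4. Nr2f2, the gene of COUP-TFII, had 0 and 0 reads in Direct RNA Undiff and 79 and 117 at Day4, and 0 and 4 reads in cDNA Undiff and 1321 and 3563 at Day4. Nr2f1, the gene of COUP-TFI, had 1 and 0 reads and then 33 and 89 in Direct RNA, and 0 and 0 and then 154 and 275 in cDNA. Rarb, an RA receptor gene that RA induces directly, had 0 and 0 reads and then 117 and 230 in Direct RNA, and 1 and 0 and then 136 and 257 in cDNA. Nr6a1, the gene of GCNF, a repressor of Pou5f1, was not called, at -2.03 (SE 0.82, adjusted p = 0.0916) and -1.21 (SE 0.92, adjusted p = 0.543).

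Formative and primed states are those into which ESCs pass first. Of 9 genes of these states, 6 had a mean count of at least 5 in Direct RNA, with 3 called lower and none higher (7.67% and 9.54% of all genes). In cDNA it was 7, with 1 lower and 1 higher, near the 9.24% and 8.69% of all genes. Dnmt3b, a de novo DNA methyltransferase, fell, with log2 fold changes of -4.44 (SE 0.56, adjusted p = 3.60e-13) and -3.96 (SE 0.77, adjusted p = 1.09e-05). Fgf5 was called higher in cDNA, from 0 and 0 to 9 and 30 reads. Regulators of lineages outside the pluripotent state, 11 genes, gave 3 calls higher and none lower among 4 with such a mean in Direct RNA, and 4 higher and none lower among 7 in cDNA. Most of these had few or no reads in Undiff and reached that mean through Day4, so these counts carry no direction of their own. Gata6, a primitive endoderm and mesoderm factor gene that Nanog opposes in the blastocyst, had 0 reads in all 4 Undiff libraries, 121 and 245 reads in Direct RNA Day4 and 62 and 155 in cDNA Day4. Gata4 had between 0 and 2 reads in the Undiff libraries and between 78 and 139 at Day4. Cdx2, the trophoblast factor gene that OCT4 opposes, had no read in any library but Direct RNA Day4 replicate 2, with 9 reads, and cDNA Day4 replicate 2, with 1 read.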

How the data were processed

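The deposited values are raw read counts per gene symbol, with 5 counters of unassigned reads, which the authors made with htseq-count and the UCSC mm10 annotation from minimap2 alignments without secondary alignments. Direct RNA reads had been counted by strand, and for the gene counts of cDNA no strand setting was named. The counters, 38.1% to 61.7% of the reads of a library, entered no library size or test. Short reads, exons and isoforms were not analysed here. The members and gene lists were chosen with earlier results of these data known.

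Following the study's methods, DESeq2 1.42.0 (R 4.3.3) was fitted to all genes of each platform with shrunken fold changes, without Cook's distance cutoff or independent filtering. Calls needed an adjusted p no higher than 0.05, a log2 fold change of 1 or more in either direction and a mean of 5 or more. Interaction (no shrinkage) and platform difference (state as covariate) used all 8 libraries. Quasi-likelihood tests in edgeR 4.0.16 (TMM factors, no expression filter), other scalings and filters, thinning, a replicate block and left-out libraries were alternatives. The main DESeq2 fits and the edgeR fits were run on simulated counts, and the other alternatives were not. Replicates of a group differed by more than sampling noise (chi-square per degree of freedom 2.68 to 14.9). Wilson and exact intervals (95%) cover counting error only. Named genes were, per list, those with the highest and lowest mean change (at most 2 each way) called alike on both platforms, relatives that moved against their member, and the 2 genes most correlated with each member. Genes outside this rule are named where a count is explained or as known partners, after their values were seen. Positions came from GENCODE vM21, to which 24054 of 24421 symbols (98.5%) were matched, 678 through a synonym.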

Additional observations from a re-analysis of the deposited data

How the results depend on the processing

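Depth limited the Day4 values, with 1 to 4 reads of most of the 5 genes in replicate 1. All state changes kept their direction in all 11 alternatives per platform, and the calls kept their side of the threshold in 54 of 55 combinations of gene and setting in Direct RNA and 48 of 55 in cDNA. Every lost call came with 1 Undiff library left out, where only the 2 Day4 libraries give a spread within a group. The log2 fold changes of these fits lay between -4.36 and -3.0. Leaving out each library in turn gave 4 to 5 of the genes called in Direct RNA and 1 to 5 in cDNA (2 without Undiff replicate 1 and 1 without Undiff replicate 2). The genes called over the whole table, 1660 in Direct RNA, were 3257 with edgeR, 843 with the replicate block, 961 after thinning to the smallest library and 393 to 797 with a library left out. The 1842 in cDNA were 3348 with edgeR, 486 after thinning, 1375 with the replicate block and 709 to 1020 with a library left out. The cause of these shifts was not tested.

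Interaction calls, 2 over all genes, were 14 with edgeR, 1 with TMM factors, 0 after thinning, 2 with the replicate block and 0 to 13 with a library left out. The interaction estimate changed sign after thinning for Pou5f1 (0.0062) and Sox2 (0.15). With a library left out it ran from -3.30 to 2.098 for Pou5f1, -3.22 to 0.64 for Sox2, -2.66 to 1.30 for Nanog, -0.15 to 2.75 for Sall4 and -3.55 to 0.94 for Utf1, never called. The platform calls, 5344 over all genes, were 3370.5 after thinning (a median of draws), 2784 in Undiff alone and 3320 in Day4 alone, and 5049 with the replicate block. Of the 5 genes 2 were called between platforms in every alternative but Day4 alone, where only Sall4 was called.

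Same-numbered replicates were checked by the correlation of their differences over 1395 genes, which was 0.21 between states in Direct RNA, 0.50 in cDNA, and 0.12 in Undiff and -0.42 in Day4 between platforms. With 2 pairs per comparison the numbers were not taken as pairing. A block with the Day4 numbers crossed, chosen after seeing the data, gave 5081 platform calls and 1 interaction call. With size factors in place of read totals, 9 of 20 group levels moved by more than 1 SD, and with the median transcript length 6 of 20 ranks per length changed.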
